A study of Mus musculus with 2 samples.

Results

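Among the skin cells of this dataset, 127 cells that passed a fibroblast gate had Inmt, Gdf10, Mgp, C3 and Chrdl1 as their leading list. They were selected on their own expression: a barcode had to pass a filter on cells, carry at least 100 UMIs per 10000 on the 5 fibroblast genes Col1a1, Col1a2, Col3a1, Dcn and Lum, score higher on these 5 genes than on each of 3 other lists of 5 genes, and hold at least 2 of the 5. A UMI is a counted RNA molecule, and the score is the sum over the list of the natural log of 1 plus the UMIs per 10000. The 127 cells are called class C here, after the third of the lists, and they are 17.1% of the 741 gated fibroblasts (exact 95% binomial interval 14.49 to 20.05%), 3.34% of the 3797 cells that passed the filter and a small part of the 5257 barcodes deposited. Since the members were chosen by these values, the levels of all genes in them are given as a description, and no test was run.

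The cells came from dorsal skin of wild-type male mice aged 9 weeks or 108 weeks, with 2 mice pooled per age and 1 droplet library per age. Both samples are labelled as macrophages, sorted as F4/80-positive cells with high MHC class II. The barcodes carry suffix 1 or suffix 2 for the library, and which age belongs to which suffix is stated nowhere in the sources used here. No ages are therefore compared, and the libraries are given side by side as suffix 1 and suffix 2. With 1 library per suffix, every interval in the text covers counting error only.

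Dermal fibroblasts make the collagen-rich matrix of the skin and also secrete complement proteins, chemokines and growth factors that act on leukocytes and vessels. Of the genes that define the class, Inmt encodes an indolethylamine N-methyltransferase, Gdf10 a secreted factor of the TGF-β superfamily also known as BMP3B, Mgp the matrix Gla protein that inhibits calcification, C3 the central component of complement, and Chrdl1 a secreted BMP antagonist related to chordin. In skin, laminin-α2 and type V collagen made by fibroblasts are parts of the matrix to which macrophages are exposed, and for this reason their genes are reported below as well.

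The promoters of the genes that chose the class are shown first. That these transcripts were found together in the same cells is set in part by the rule that chose the cells. Of 8 genes looked for in the RefSeq table of promoters (GRCm38.p6), 5 matched, and the 250 bases before the start are printed for the 3 of them that belong to the list. Capitals mark matches on either strand to TATAAA, TTGCNNAA (a C/EBP-like motif), TTCNNNGAA (STAT-like), TGACTCA (AP-1) or CACCTG (an E-box).
Inmt, chr6:55174991-55175240, minus strand: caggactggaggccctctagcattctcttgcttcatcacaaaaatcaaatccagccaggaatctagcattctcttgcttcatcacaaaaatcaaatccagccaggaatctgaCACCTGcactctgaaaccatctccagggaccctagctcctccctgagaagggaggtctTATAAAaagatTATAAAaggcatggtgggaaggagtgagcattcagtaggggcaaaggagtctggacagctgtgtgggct
Gdf10, chr14:33923337-33923586, plus strand: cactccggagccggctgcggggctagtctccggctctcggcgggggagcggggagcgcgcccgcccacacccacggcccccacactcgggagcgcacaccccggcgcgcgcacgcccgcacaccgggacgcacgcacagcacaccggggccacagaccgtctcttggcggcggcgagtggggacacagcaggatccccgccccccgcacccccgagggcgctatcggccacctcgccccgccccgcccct
C3, chr17:57228137-57228386, minus strand: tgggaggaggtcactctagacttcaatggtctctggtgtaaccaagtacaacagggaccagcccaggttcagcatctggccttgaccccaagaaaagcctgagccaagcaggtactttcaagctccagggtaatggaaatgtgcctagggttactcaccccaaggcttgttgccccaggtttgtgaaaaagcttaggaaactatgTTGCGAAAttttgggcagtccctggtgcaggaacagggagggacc
Inmt holds TATAAA at 80 and at 69 bases before the RefSeq start and CACCTG at 138. C3 holds TTGCNNAA at 45, and Gdf10 holds none of the motifs in this window. For Inmt a second gene annotation puts the start at base 55175043, inside the printed window, so that its distances depend on the start used. Of 32851 promoters of the same length in the table, 12.4% hold TATAAA, 9.56% TTGCNNAA, 7.02% TTCNNNGAA, 4.46% TGACTCA and 17.2% CACCTG on either strand. The 3 promoters share none of the 5 motifs.

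The gated fibroblasts fell unequally into the lists. Class A, led by Myoc, Ptx3, Fst, Has1 and Prg4, held 269 cells, class B, led by Igfbp2, Grem1, Cyp26b1, C1qtnf3 and Itgbl1, held 259, class D (Prlr, Slc26a7, Pappa2, Crabp1 and Dkk2) held 3, and 83 cells were in no class. Class C made up 14.5% of the 269 gated cells of suffix 1 (39 cells, 10.5 to 19.3%) and 18.6% of the 472 of suffix 2 (88 cells, 15.2 to 22.5%), and these intervals overlap. Of all cells past the filter, however, class C was 1.63% in suffix 1 (1.16 to 2.22%) and 6.28% in suffix 2 (5.07 to 7.68%), without overlap. Its cells were shallower than those of classes A and B, with a median of 7827 UMIs against 13017 in class A and 17356 in class B. The filter left 2396 of 3235 barcodes in suffix 1 and 1401 of 2022 in suffix 2. The libraries shared 1 barcode sequence, which no gated fibroblast carried.

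**Figure D1:**
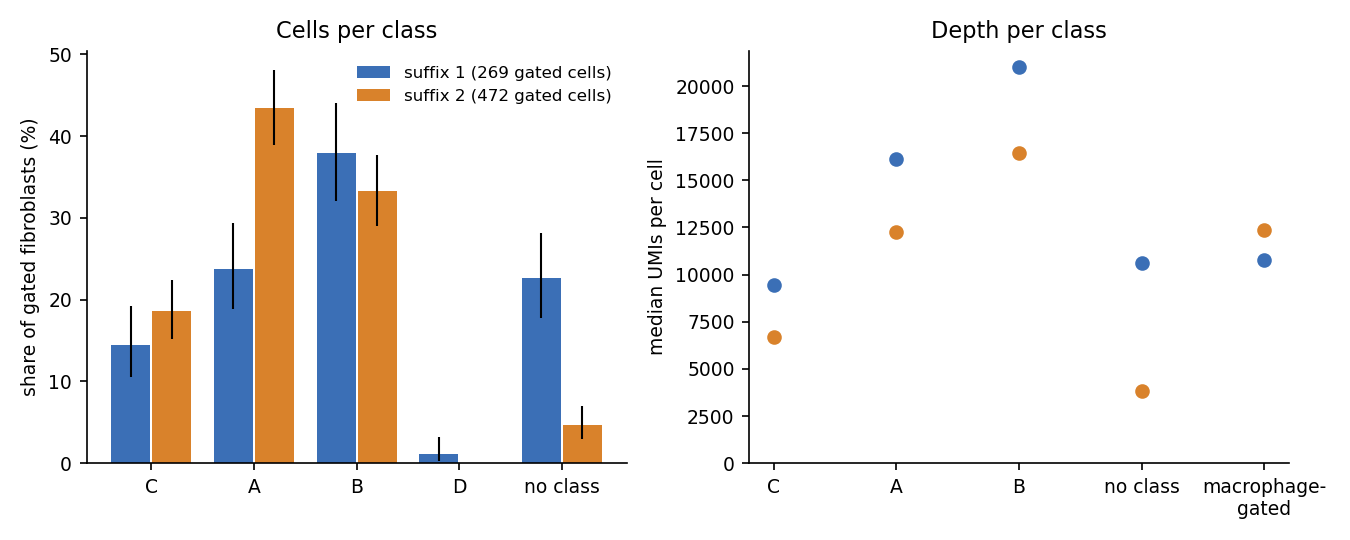
Left, the share of gated fibroblasts (%) in each class for suffix 1 and suffix 2, with exact 95% binomial intervals. Right, the median UMIs per cell in each class and in the 2094 macrophage-gated cells. Class C is a similar share of the gated fibroblasts of both libraries, 14.5 and 18.6%, while class A is 23.8% in suffix 1 and 43.4% in suffix 2. In depth, class C lies below classes A and B in both libraries.

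The label of fibroblast was checked on genes that the gate did not use. Pdgfra, a receptor that marks fibroblasts, had a UMI in 87 of the 127 cells, and 10 fibroblast markers summed to 7859 CPM in class C (UMIs per 1e+06 UMIs of the group) against 7459 in class A, 5652 in class B and 55.5 in the macrophage-gated cells. Adgre1, the gene of F4/80, had a UMI in 1 of the 127 cells and in 1827 of the 2094 macrophage-gated cells. The defining markers of fibroblasts were thus present in the class as a whole, and the transcript of the sorting marker was nearly absent. The check does not hold equally for 5 of the 127 cells, which are described further below. Of these 5, 2 had a UMI of Pdgfra, against 85 of the other 122. Col1a1 was at 599 CPM in them against 9890, and the myelin gene Mbp at 3005 against 29.1. Whether these 5 cells are fibroblasts was not tested. The shares of classes are shares of this sorted suspension and not of the skin. Why fibroblasts were in the sorted suspension was not tested.

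The genes of the rule are given next as a description, as CPM, the UMIs of the gene per 1e+06 UMIs of the group. Inmt was at 610 CPM in class C in suffix 1 and 424 in suffix 2, at 182 and 139 in class A, and at 2.34 and 0.786 in class B. Gdf10 was at 177 and 295 CPM in class C, 47.8 and 59.2 in class A, and 1.40 and 1.18 in class B. Both were low in class B, and in the macrophage-gated cells they were at 0.303 and 0.0757 CPM. Mgp was at 431 and 1778 CPM in class C, 237 and 624 in class A, and 7.94 and 38.1 in class B. C3 was at 3136 and 1992 CPM in class C, 1193 and 883 in class A, and 115 and 226 in class B. Chrdl1 was at 284 and 280 CPM in class C, 55.2 and 107 in class A, and 0.467 and 0.393 in class B. For each of the 5 genes the order was C, then A, then B in both libraries. Mgp differed more between the libraries in class C than the other 4, with a UMI in 76 of 88 cells against 18 of 39 in suffix 1.

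**Figure D2:**
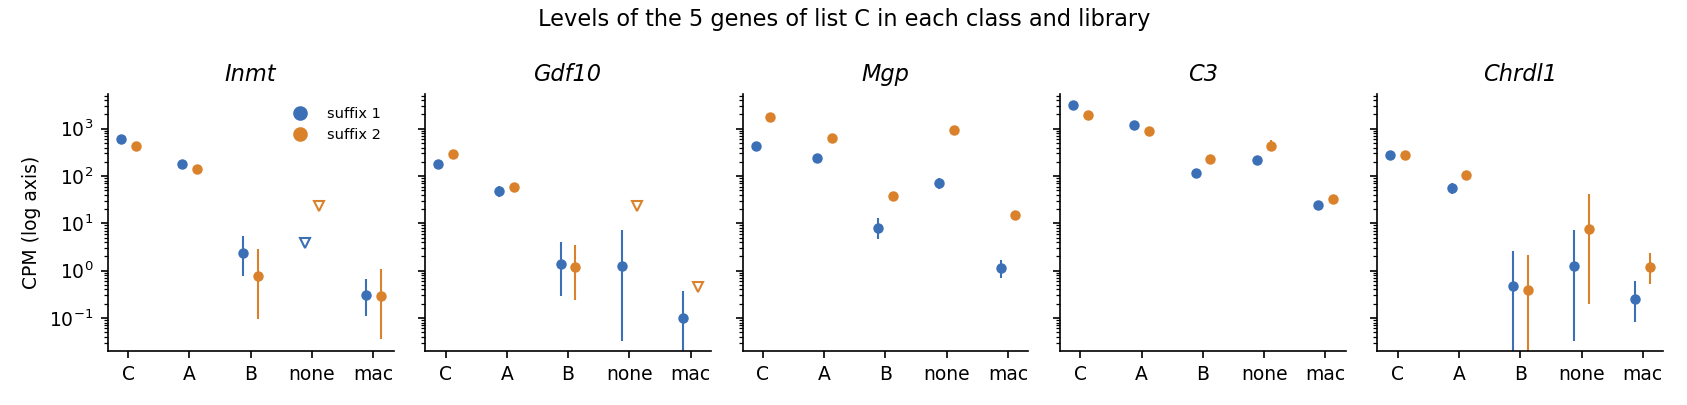
Levels of Inmt, Gdf10, Mgp, C3 and Chrdl1 in CPM on a log axis, for class C, class A, class B, fibroblasts in no class (none) and macrophage-gated cells (mac), in suffix 1 and suffix 2. Points carry exact 95% Poisson intervals, and open triangles stand for a count of 0, drawn at the level of 3 counts. The order C, A, B holds for all 5 genes in both libraries, with Inmt at 493 CPM in class C against 1.49 in class B.

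The deepest class, B, had the lowest levels. After each cell was thinned to 2000 UMIs, which left out 10 of 127 class C, 13 of 269 class A and 8 of 259 class B cells, Inmt had a UMI in 43.6% of class C (34.4 to 53.1%), 22.3% of class A and 0.398% of class B cells. Without thinning the shares were 66.1, 43.5 and 1.16%. In the macrophage-gated cells, which should lack the gene, the share was 0.0495% after thinning and 0.382% before, at a median of 11046 UMIs. Gdf10 was found in 36.8% of thinned class C cells and in 10.5% of class A cells, and had no UMI in 251 thinned class B cells (exact interval up to 1.46% for cells with a UMI at this depth). Without thinning, Gdf10 had a UMI in 64.6% of class C, 25.3% of class A and 1.93% of class B cells. C3 was the most widespread of the list, in 75.2% of thinned class C, 60.5% of class A, 19.1% of class B and 4.26% of macrophage-gated cells. Joint detection in class C is set in part by the rule, which asked for at least 2 genes of the list. All of Inmt, Gdf10 and Chrdl1 were detected in 42 of 127 class C and 31 of 269 class A cells, in 0 of 259 class B cells and in 0 of 2094 macrophage-gated cells. Mgp and C3 without any of these 3 genes were found in 7 class C cells.

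The class was not set off from class A by a gap in the scores. The margin of list C over the next list ran from 0.0488 to 13.5 with a median of 3.24, and 7 members lay within 0.25 of the next list. Just outside, 7 cells had list C second within 0.25, and 17 cells had list C highest but only 1 of its genes. List A was next for 114 members and list B for 13. Of the members, 25 held 2 genes of the list, 32 held 3, 42 held 4 and 28 held all 5, and the median depth went from 6092 to 11224 UMIs over these groups. When the UMIs of each cell were split at random into a pair of equal parts and the classes were drawn on the first part, 101 of the 127 cells were again in class C, 11 in class A, 13 in no class and 0 in class B. The UMIs of the first part are among those that chose the 127 cells, so that this overlap is in part set by the rule. In the second part of the UMIs, which did not choose the cells, Inmt was at 497 CPM in class C (439 to 560), 146 in class A and 0.929 in class B, and Gdf10 at 225, 52.0 and 1.39.

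Genes of list A were also present in class C. Has1, a hyaluronan synthase, was at 908 and 1753 CPM in class C in suffix 1 and suffix 2, against 1625 and 3973 in class A and 402 and 583 in class B. Myoc, which encodes myocilin, was at 564 CPM in class C, 1383 in class A and 14.5 in class B. Ptx3, a secreted pentraxin, was at 354 CPM in class C, 2061 in class A and 23.1 in class B. The genes of list B were below their class B level in class C, to a differing extent. Igfbp2, an IGF-binding protein, was at 0.923 CPM in class C against 868 in class B, while Itgbl1 was at 149 CPM in 65 of the 127 cells, against 191 in class A and 424 in class B. The 114 members with list A next had Has1 at 1569 CPM, and the 13 with list B next had it at 94.8 CPM. Igf1, which the rule did not use, was at 581 CPM in the former cells and at 379 CPM in the latter.

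For the other genes, class C was compared with the pooled cells of classes A, B and D, and with class A and class B alone. A gene counted as tested at a mean of at least 10 CPM over the compared groups, and was called higher or lower where its level differed at least 2-fold in the same direction in each library and the exact 95% interval of the pooled ratio excluded 0 on the log2 scale. This is a rule of size and not a test between samples. Of 7389 genes, 182 (2.46%) were called higher and 149 (2.02%) lower than in the pooled cells. Against class A alone 173 of 7331 genes (2.36%) were called higher and 61 (0.832%) lower, and against class B alone 415 of 7399 (5.61%) were called higher and 249 (3.37%) lower. The genes higher than in A and the genes higher than in B had 83 in common, and 31 were lower than in both. Of the 182 genes called higher than the pooled cells 90 were also called over A and 169 over B, and of the 149 called lower 39 were also called against A and 139 against B. Among the higher genes named below, C7, Igf1, Apod, Gsn, Osr1, Hic1, Ebf2, Epha3, Gabra3, Sfrp4 and others were not called over A. Among the lower ones, Ctsk, Thy1, Osr2, Sparc, Cyp2f2 and others were not called against A. The pooled cells hold A and B in similar numbers, but B has more UMIs per cell. The gate genes took up 4.14% of the UMIs of class C and 11.0% of the pooled cells. With them left out of the totals, a scaling chosen after the data were seen, every pooled log2 ratio falls by 0.107, the median over the tested genes goes from 0.115 to 0.0063, and 156 genes are called higher and 206 lower. The share of calls that are higher then goes from 55.0 to 43.1%.

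Several complement genes had their highest level in class C. Of 19 listed genes 12 were tested, and C2, C7 and Vtn were called higher and Masp1 lower, 3 and 1 of 12 beside 2.46 and 2.02% of all genes. The median log2 ratio of the 12 was 0.97, beside 0.115 over all tested genes. C2, a serine protease of the C3 convertase, was at 286 and 320 CPM in class C, 55.2 and 152 in class A, and 32.7 and 141 in class B, with a log2 ratio of 1.55 (1.36 to 1.73). C7, a component of the membrane attack complex, was at 139 and 314 CPM in class C, 92.9 and 107 in class A, and 31.8 and 49.5 in class B, with a log2 ratio of 1.88 (1.66 to 2.09). Class C was the highest of the 3 classes in both libraries for C2 and for C7, but C7 was not called over class A alone. Vtn, which encodes vitronectin, was at 67.4 CPM in class C with a log2 ratio of 3.32, but in 19 cells, and 5 of them held 78.1% of its UMIs. Masp1, a protease of the lectin pathway, was at 7.39 CPM in class C against 45.2 in the pooled cells. Serping1, the C1 inhibitor, was the most abundant of the list at 2743 and 3000 CPM and was not called, with a log2 ratio of 0.66. C4b and Cfb had log2 ratios of 1.08 and 1.15 but missed the size in suffix 2, and Cfd and Cfi had no UMI in the class. With C3 from the rule, class C thus held transcripts of convertase components, of a terminal component and of the C1 inhibitor.

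Chemokines also held calls. Of 37 listed chemokines and growth factors 35 were matched and 26 tested, and 6 were called higher and 0 lower, beside 2.46% of all tested genes higher and 2.02% lower, with a median log2 ratio of 0.63 beside 0.115 over all tested genes. Cxcl12, the ligand of CXCR4, was at 446 and 843 CPM in class C, 388 and 391 in class A, and 70.1 and 237 in class B, with log2 ratios of 1.42 against the pooled cells and 0.83 against class A. Cxcl14 was at 582 and 975 CPM in class C, 158 and 615 in class A, and 24.8 and 2.36 in class B, with a log2 ratio of 1.96 (1.84 to 2.07). Ccl11, or eotaxin, which attracts eosinophils, was at 704 and 966 CPM in class C, 268 and 702 in class A, and 15.9 and 170 in class B, with a log2 ratio of 1.52 (1.41 to 1.63). Class C was highest for all 3 in both libraries, but none of them was called over class A alone. Cxcl16, a membrane-bound chemokine, was called over both classes, at 74.7 and 70.5 CPM in class C against 26.7 and 25.6 in class A and 6.54 and 6.29 in class B. Cxcl13, a B cell attractant, had a log2 ratio of 5.56 but came from 13 cells, of which 5 held 95.8% of its UMIs, and Cxcl9 came from 8 cells. Cxcl1, a neutrophil attractant, was at 3176 and 4995 CPM in class C against 3430 and 10226 in class A. Csf1, the growth factor of macrophages, was at 467 CPM in class C, 1099 in class A and 925 in class B, and was not called, with log2 ratios of -0.24 in suffix 1 and -1.72 in suffix 2.

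**Figure D3:**
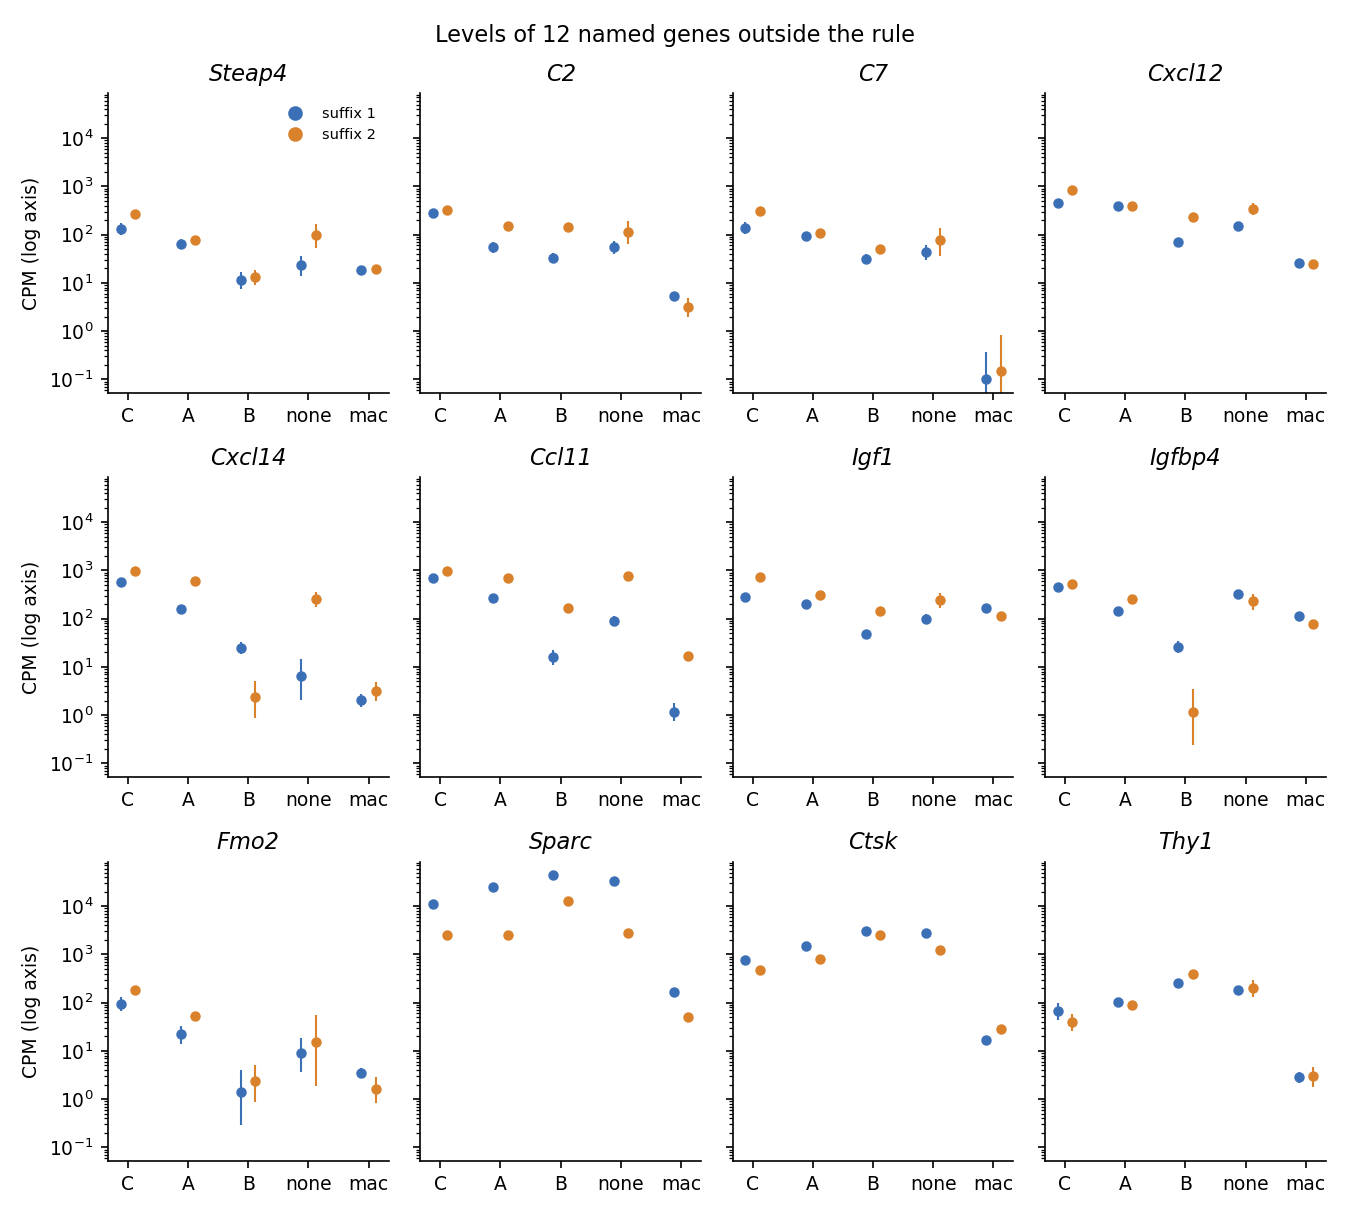
Levels of 12 named genes that the rule did not use, in CPM on a log axis, in class C, class A, class B, fibroblasts in no class (none) and macrophage-gated cells (mac) of suffix 1 and suffix 2, with exact 95% Poisson intervals. Steap4, C2, C7, Cxcl12, Cxcl14, Ccl11, Igf1, Igfbp4 and Fmo2 were highest in class C of the 3 classes in both libraries, and Ctsk and Thy1 lowest. Sparc was about as low in class A as in class C in suffix 2.

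Of 12 genes of the IGF system 10 were tested, and Igf1 and Igfbp4 were called higher and none lower, against the same shares over all tested genes of 2.46% higher and 2.02% lower, which also apply to the counts below. Igf1, the growth factor itself, was at 279 and 731 CPM in class C, 204 and 304 in class A, and 49.1 and 147 in class B, with a log2 ratio of 1.67 (1.54 to 1.81). Igfbp4, a secreted binding protein of IGF, was at 455 and 536 CPM in class C, 145 and 257 in class A, and 26.2 and 1.18 in class B, with a log2 ratio of 2.27 (2.12 to 2.43). Igf1 was found in 102 and Igfbp4 in 76 of the 127 cells. Igfbp6 was the most abundant of the list at 2897 and 1779 CPM and was not called (log2 ratio 0.88). Among 15 tested WNT genes Sfrp4 and Sfrp5, secreted WNT antagonists, were called higher and Apcdd1, a WNT inhibitor of the membrane, lower. Sfrp4 was at 207 and 80.7 CPM in class C against 46.9 and 68.0 in class A, from 30 cells, of which 5 held 63.8% of its UMIs. Of 29 tested genes of BMP, TGF-β and activin signalling none was called higher, and Tgfbi, Inhbb and Gdf15 were called lower, with a median log2 ratio of -0.21. Gdf10 and Chrdl1, which belong to the same pathways, are part of the rule and not counted there.

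Genes that handle retinoids, foreign compounds and lipids held calls in both directions. Of 10 tested retinoid genes Rdh10, Aldh1a3 and Crabp2 were called higher and none lower, again beside 2.46% of all tested genes higher and 2.02% lower. They were found in 14, 13 and 6 class C cells, and 5 cells held 73.6, 80.0 and 96.9% of their UMIs. Of 25 tested genes of detoxification and redox Fmo2, Aox3 and Gsta4 were called higher and Cyp2f2 and Cyp4b1 lower. Gsta4 had a UMI in 6 class C cells, of which 1 held 81.5% of its UMIs, and its log2 ratio went from 3.88 to 0.62 when cells were thinned before the scores. Fmo2, a flavin-containing monooxygenase, was at 94.6 and 183 CPM in class C, 22.1 and 53.2 in class A, and 1.40 and 2.36 in class B, with a log2 ratio of 2.91 (2.59 to 3.23). Cyp2f2, a cytochrome P450, was at 42.3 and 169 CPM in class C, 145 and 316 in class A, and 302 and 941 in class B, with a log2 ratio of -1.98 (-2.24 to -1.73). Of 14 tested lipid and adipocyte-lineage genes, the apolipoproteins Apod and Apoe and the transcription factor Ebf2 were called higher and the fatty acid receptor Cd36 lower. Apod was at 1045 and 3549 CPM in class C, 929 and 2152 in class A, and 235 and 727 in class B. Apoe was at 769 and 1177 CPM in class C, 361 and 331 in class A, and 345 and 442 in class B, and 5 cells held 42.0% of its UMIs in the class. The macrophage-gated cells held Apoe at 3650 CPM.

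The matrix genes called were few, as they were over all tested genes, of which 2.46% were called higher and 2.02% lower. Of 15 tested collagens of a list that leaves out the gate genes none was called higher and only Col16a1 lower, and no small leucine-rich proteoglycan (9 tested) and no elastic fibre gene (20 tested) was called in either direction. Col4a4, a chain of type IV collagen that is not on the list and was named after its value was seen, was called higher at 80.3 CPM against 31.0 in the pooled cells, from 42 cells. The gate collagens, which are part of the rule, were lower in class C: Col1a1 was at 20800 and 2294 CPM in class C against 49063 and 3718 in class A and 96823 and 25929 in class B. Dcn, the proteoglycan decorin and also a gate gene, was at 16021 and 16255 CPM in class C, 13636 and 12852 in class A, and 14433 and 19392 in class B. Class C thus had less Col1a1 for its Dcn than classes A and B in both libraries. Within class C and within class A, however, Col1a1 differed more between the libraries than it did between these classes. In class C, 5 cells held 45.7% of its UMIs. Sparc, which encodes a collagen-binding glycoprotein and was the only call among 10 tested genes of laminins and basement membrane, was at 11258 and 2485 CPM in class C, 25590 and 2494 in class A, and 44232 and 12808 in class B. Its log2 ratio of -1.76 (-1.80 to -1.73) held in both libraries over the pooled cells, but in suffix 2 classes C and A were at the same level. Lama2, the laminin-α2 chain, was at 176 CPM in class C, 169 in class A and 111 in class B, with log2 ratios of 1.09 in suffix 1 and -0.25 in suffix 2. Col5a1 and Col5a2 had log2 ratios of -0.57 and -0.63 over the pooled cells and Col5a3 of 0.85, all under the size of a call.

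Among 27 tested proteases and inhibitors Cst3 was called higher and Ctsk lower. Cst3, or cystatin C, an inhibitor of cysteine cathepsins, was detected in all 127 cells, at 1814 and 4697 CPM in class C, 834 and 1543 in class A, and 670 and 978 in class B, with a log2 ratio of 1.79 (1.73 to 1.84). Ctsk, the collagen-degrading cathepsin K, was at 774 and 477 CPM in class C, 1534 and 799 in class A, and 3103 and 2476 in class B, with a log2 ratio of -1.77 (-1.89 to -1.66). This is 1 call in each direction, beside 2.46% of all tested genes higher and 2.02% lower. Cst3 was also called over class A alone, while Ctsk was not, with a log2 ratio of -0.80 against class A. Of 15 tested genes of universal and adventitial fibroblasts Gsn was called higher and Thy1 lower. Gsn, the actin-severing protein gelsolin, was the most abundant transcript of that list, at 20327 and 18487 CPM in class C, 10866 and 11343 in class A, and 2950 and 4152 in class B. Thy1, or CD90, was at 67.2 and 39.6 CPM in class C, 101 and 88.0 in class A, and 260 and 395 in class B. Of 6 tested markers of papillary dermis, the upper layer, Trps1 and Apcdd1 were called lower and none higher.

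Of 34 tested transcription factors Osr1, Hic1, Nr2f2 and Gata6 were called higher and Osr2 lower, beside 2.46% of all tested genes higher and 2.02% lower. Osr1, an odd-skipped factor, was at 52.3 and 58.7 CPM in class C against 8.27 and 37.2 in class A and 10.7 and 13.8 in class B, and its relative Osr2 was at 105 and 19.1 CPM against 119 and 54.0 in class A and 270 and 223 in class B. Osr1 and Osr2 thus lay on opposite sides, with log2 ratios of 1.54 (1.09 to 1.97) and -1.74 (-2.16 to -1.35). Hic1, a zinc-finger repressor, had a log2 ratio of 1.32 and was in 30 cells. Nr2f2, the nuclear receptor COUP-TFII, had a log2 ratio of 3.58 from 32 cells, of which 5 held 61.2% of the UMIs, and Gata6 was in 11 cells.

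Steap4, Hspb1, Epha3, Arhgap24, Gabra3 and Hopx were also called higher, and each was found in between 33 and 81 of the 127 cells. Steap4, a metalloreductase, was at 134 and 272 CPM in class C, 65.3 and 77.6 in class A, and 11.7 and 13.4 in class B, in 81 cells. Hspb1, a small heat shock protein, was at 378 and 258 CPM in class C, 100 and 128 in class A, and 24.3 and 20.8 in class B, in 60 cells. Of these, 5 held 57.6% of its class UMIs, against 21.8% for Steap4. Hspb1 and Egr2 were the 2 called higher of 20 tested immediate early and heat shock genes, and none was lower. Egr2 was in 16 cells, of which 5 held 78.0% of its UMIs, and its log2 ratio was 0.13 with a gate of 300 UMIs per 10000. Of 12 cell cycle genes 1 was tested and it was not called. Epha3, an ephrin receptor, was at 67.4 CPM in class C against 22.8 in class A and 3.63 in class B, in 48 cells. Arhgap24, a GTPase-activating protein, and Gabra3, a GABA receptor subunit, had log2 ratios of 2.36 and 2.30 and were in 43 and 42 cells. Hopx, a homeodomain-only protein found in 33 cells, differed from the others in being higher over class A (log2 ratio 2.73) than over class B (2.05). Among the genes called lower, Ctla2a, Ndufa4l2 and Gdf15 had log2 ratios of -5.01, -3.97 and -4.08 over the pooled cells. Gdf15, a stress-induced cytokine, was at 29.9 and 10.3 CPM in class C, 80.0 and 41.6 in class A, and 433 and 528 in class B. Aldh3a1 and Gal, an aldehyde dehydrogenase and the neuropeptide galanin, each had 1 UMI in the class against 81.5 and 86.8 CPM in the pooled cells, and Gpha2 had 0 UMIs. All of these had their highest level in class B.

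**Figure D4:**
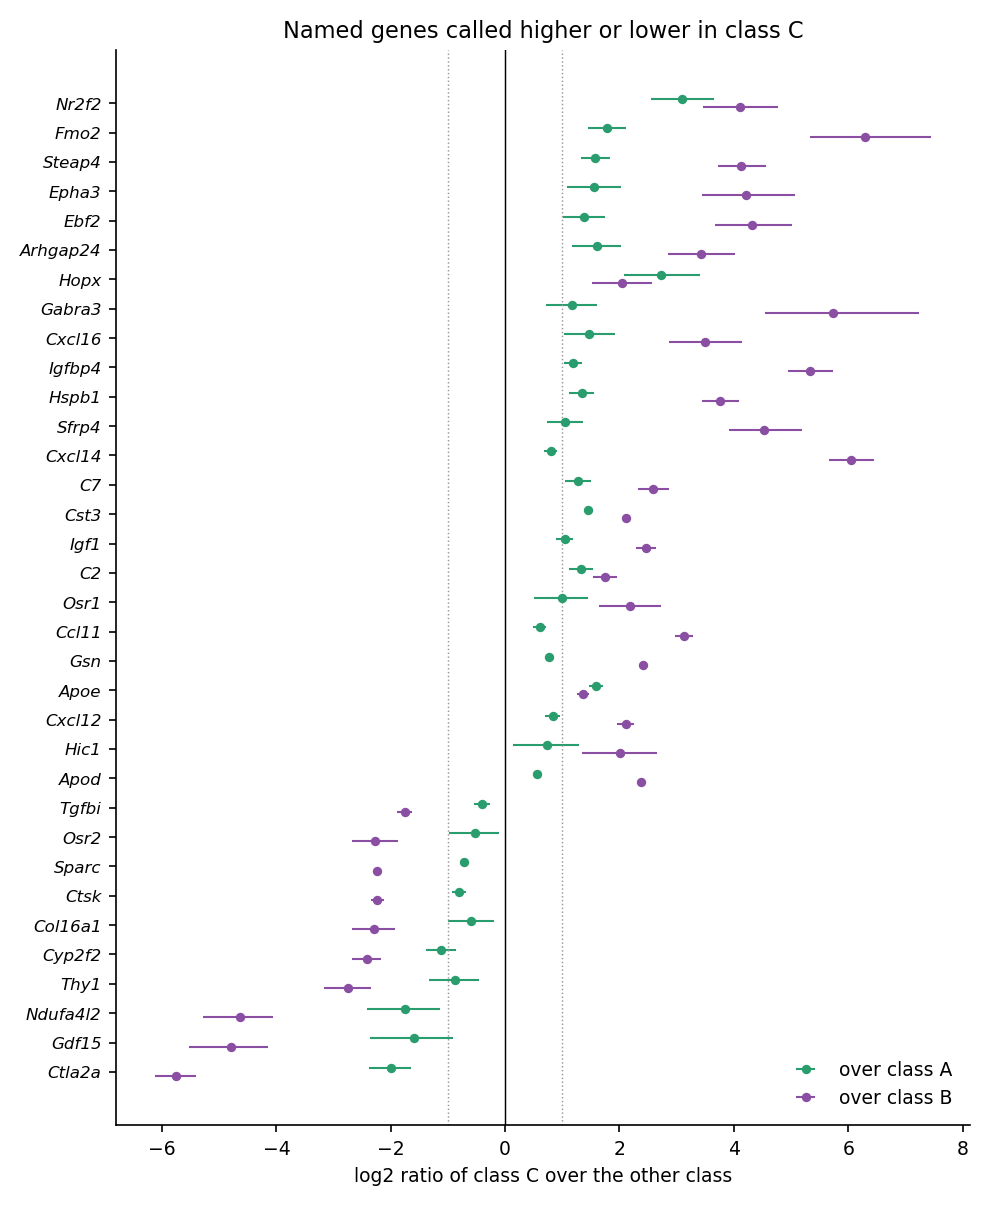
Log2 ratio of class C over class A (green) and over class B (purple) with exact 95% intervals, for 34 named genes: 24 called higher over the pooled cells with a UMI in at least 30 class C cells, and 10 called lower at 200 CPM or more in class A or B, limits set after the values were seen. Dotted lines mark a 2-fold difference. All 24 lie above 0 and all 10 below 0 against both classes, and 22 of the 24 and all 10 are further from class B than from class A, with Hopx and Apoe as the exceptions.

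Some of the largest ratios came from few cells. Of the 182 genes called higher, 25 had a UMI in under 10 class C cells, 56 in at least 32 cells, and in 33 genes 5 cells held at least 75% of the UMIs. Itgb4 and Itga6, integrin subunits that form a laminin receptor, the myelin protein Mbp, the junction protein Cldn1, the teneurin Tenm2, Sfrp5 and the ligand Wnt6 were in this set. Taking 6 of the genes (Itgb4, Cldn1, Tenm2, Wnt6, Sfrp5 and Neu2), a set chosen after the values were seen, 5 class C cells held at least 3 of them, 3 of suffix 1 and 2 of suffix 2. These 5 cells carried 99.2% of the class UMIs of Itgb4, 95.9% of Sfrp5, 89.8% of Mbp and 57.3% of Nr2f2, and none of Neu2. They had no UMI of Inmt, Gdf10, C7 or Ly6c1, but all 5 had Mgp and Chrdl1, and Col1a1 was at 599 CPM in them against 9890 in the other 122 cells. At least 3 of the 6 genes were also present in 3 gated fibroblasts outside the class and in 56 cells outside the gate. Without the 5 cells 151 genes were called higher and 152 lower, and the log2 ratios of Itgb4 and Gatm went to -1.12 and -0.68. The 5 cells were kept in all values above.

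**Figure D5:**
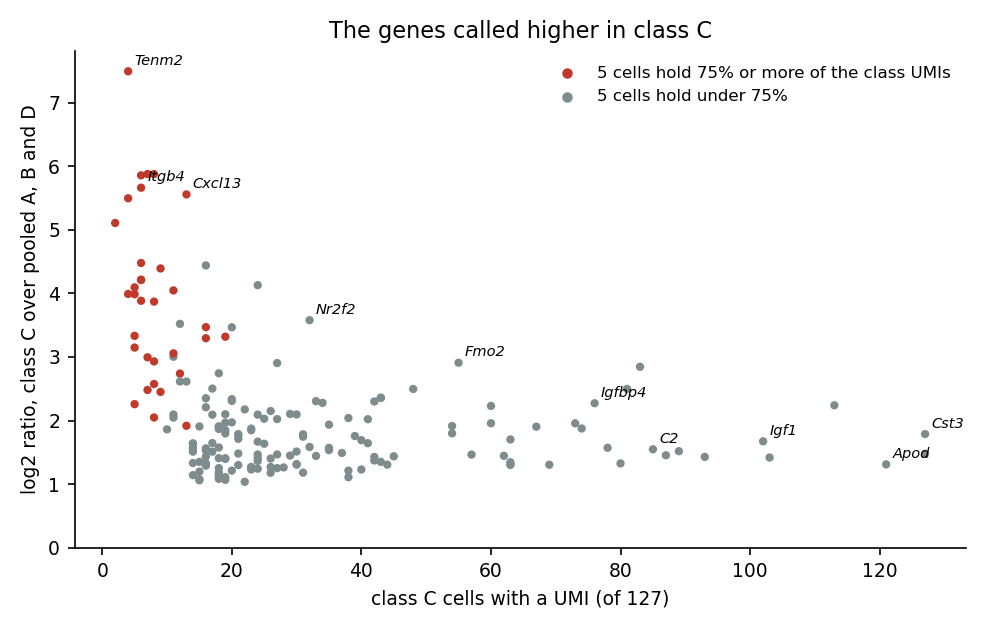
Each point is a gene called higher in class C (182 genes). The x axis gives the class C cells with a UMI of the gene, of 127, and the y axis the log2 ratio over pooled A, B and D. Red marks the 33 genes for which 5 cells hold 75% or more of the class UMIs, which include Tenm2 at 7.49 from 4 cells, while Fmo2 at 2.91 is from 55 cells and Cst3 at 1.79 from 127.

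Markers of other cell types moved in both directions. The 13 macrophage markers summed to 96.9 CPM in class C (209 in suffix 1 and 30.8 in suffix 2), against 340 and 286 CPM in the pooled cells and 16731 in the macrophage-gated cells, with Cd163 and Folr2 at 0. Lyz2, a lysozyme, was the highest of them at 38.8 CPM against 161 in class A. The 7 MHC class II genes summed to 361 CPM against 58023 in the macrophage-gated cells, and 1 class C cell held at least 20 UMIs per 10000 on the macrophage gate genes. The 9 pericyte and smooth muscle markers summed to 48.0 CPM against 143 in class A and 141 in class B, with Higd1b at 0. The 6 Schwann cell markers summed to 292 CPM against 43.7 in class A and 47.4 in class B, with Foxd3 at 0, and Mbp, mostly in the 5 cells above, was 263 CPM of it. The 8 keratinocyte markers summed to 69.2 CPM (Krt1 at 0) against 40.7 in class A and 23.7 in class B, and the melanocyte and muscle markers to 105 CPM, with 4 of 7 at 0, against 39.8 and 71.7. With both libraries together, the Schwann cell, keratinocyte and melanocyte and muscle sums were thus highest in class C of the 3 classes. The melanocyte and muscle sum differed in direction between the libraries. It was 27.4 CPM in class C against 73.1 in the pooled cells in suffix 1, and 151 against 48.0 in suffix 2. Acta1 was 70.2 CPM of it, with 93.4% of its UMIs in 1 cell. Krt15, the highest keratinocyte marker, had a UMI in 2 class C cells, and 1 of them held 96.4%. The 8 endothelial markers summed to 36.0 CPM against 65.5 in class A and 29.7 in class B, mast cell and lymphocyte markers to 1.85 CPM, with 6 of 8 at 0, against 4.46 and 3.20, and the 5 adipocyte markers were all at 0 in the 3 classes. The part of these markers in the ratios above was not tested, other than by the values without the 5 cells and without cells rich in macrophage genes.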

How the data were processed

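Single cells of dorsal skin were measured in 2 libraries, 1 of each age. The authors made the counts with Cell Ranger 4.0.0 on the build mm10, per the submitters' processing notes, from 3' droplet libraries, and deposited both libraries as 1 matrix of raw UMI counts of 32285 genes, without normalization. Whether cells were filtered before deposit is not known here. The matrix maps no barcode suffix to a sample, and the ages were therefore not compared.

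A filter removed barcodes under 500 genes, under 1000 UMIs or over 10% mitochondrial UMIs. The work was done in Python 3.11.15, numpy 2.4.6, scipy 1.17.1 and pandas 2.3.3. Doublets were not called. Depth was 35821853 UMIs in suffix 1 and 20382748 in suffix 2, and class C held 1083053 UMIs. Levels are CPM of the summed UMIs of a class, and exact Poisson intervals at 95% go with them. A ratio has an exact binomial interval from both sums, a sum of 0 was set to 3 counts, and shares have exact Clopper-Pearson intervals. PCR duplicates are removed by UMIs, and the cells of a library are not replicates, so that no p-value was computed. The statistics were tested on simulated counts drawn with counting error only. The simulation had no differences between cells, so that it does not cover genes held by few cells.

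The members, the 28 gene lists and the rule for named genes were chosen with earlier results of these data known. The rule names the genes of the 4 lists and the gate, in each list the most abundant, the highest and the lowest member and up to 6 called members, and over all genes the 20 highest and 12 lowest at 50 CPM or more. Pdgfra, Adgre1, Csf1, Lama2, the type V collagens, C4b, Cfb, Col4a4, Cldn1, Neu2, Tenm2 and Wnt6 were named after their values were seen. Symbols with more than 1 identifier count as unmatched, which are 2 chemokines of the lists. A few genes are not reported here and were left out of the lists. Alternatives changed the filter, gate, lists, depth, libraries, comparison group, weighting and size of a call.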

Additional observations from a re-analysis of the deposited data

Results flagged for a closer look

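For 8 named genes the ratio of class C over the pooled cells of classes A, B and D pointed up in 1 library and down in the other, with both intervals excluding 0. None of these genes was called, and the difference between the libraries was not tested. Fmod (fibromodulin) had log2 ratios of -2.49 in suffix 1 and 2.51 in suffix 2, and Acta1 (skeletal muscle actin) of -3.59 and 3.80. Both rest on few cells, 5 class C cells with a UMI of Fmod and 6 of Acta1. Lif went from 0.64 in suffix 1 to -3.62 in suffix 2, Cxcl1 from 1.29 to -0.059, Rarres2 from 0.21 to -0.69, Fstl1 from 0.28 to -0.42 and Fbn1 from 0.35 to -0.59. Bgn, a proteoglycan, went from -0.85 to 0.32. Over all tested genes the median log2 ratio was 0.27 in suffix 1 and 0.0081 in suffix 2, so that the ratios of suffix 1 lie higher as a whole.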

How the results depend on the processing

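No paired analysis was possible because each age has 1 library and no suffix is tied to an age. Class C was 17.1% of gated fibroblasts. It was 12.5% with a gate of 300 UMIs per 10000, 13.8% with 3 or more genes of the list and 13.4% after thinning to 2000 UMIs, and between 14.5 and 18.6% in the other alternatives. The 182 genes called higher became 367 with the gate of 300, 940 in suffix 1 alone, 359 in suffix 2 alone, 49 at a mean of 50 CPM, 470 with no CPM filter, 533 at 1.5-fold and 415 over class B alone. The 149 called lower became 255 in suffix 1 alone, 399 in suffix 2 alone, 45 at 50 CPM, 308 at 1.5-fold, 61 against class A alone and 249 against class B alone. A single library asks for 2-fold in 1 library only. In the other alternatives both counts stayed within 1.5 times, but the genes changed: of the 182 higher genes, 83 were called again after thinning, 100 with the mean over cells and 103 with classes chosen on a random part of the UMIs, and of the 149 lower genes 93, 109 and 82. Of the 69 named genes called, 63 kept their sign in all 16 alternatives and 36 stayed at 2-fold or more.

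The log2 ratio turned with the gate of 300 for Itga6 (-0.52) and Rgs16 (-0.16), with 3 or more genes for Gatm (-0.094), and after thinning for Gatm (-2.76), Itga6 (-0.81), Itgb4 (-1.55), Mbp (-1.43) and Lyz2 (1.89). Without the 5 cells, chosen after seeing the data, it turned for Gatm (-0.68) and Itgb4 (-1.12). The cause was not tested. Class A or B alone, and the gate genes left out of the totals, were also chosen after seeing the data. With the 127 cells in 1 library per suffix, genes in few cells are the least certain, and class C is shallower than classes A and B.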
